A study of Mus musculus with 10 samples.

Results

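Lymph node B lineage cells that carry activating alleles of both NIK and Notch2 were compared with cells labelled as carrying the Notch2 allele alone. The comparison takes 4 of the 10 libraries of the series, chosen by their labels: 2 doubly activated libraries and 2 Notch-labelled libraries. All cells were sorted from C57BL/6 mice and RNA was sequenced as bulk libraries, so a difference reflects the sorted population as a whole. The doubly activated libraries carry Rosa-NIKdeltaT3flSTOP and Rosa-Notch2ICN together with CD19Cre and are labelled as precursors of marginal zone B cells. The Notch-labelled libraries carry Rosa-Notch2ICN with CD19Cre and are labelled as marginal zone B cells. The titles thus differ in cell type as well as in the NIK allele. The deposited data of the Notch-labelled libraries are, however, named with the letters IMZP where the titles have IMZB, so whether these cells were sorted as precursors or as marginal zone cells is uncertain, and the titles are followed here. Both groups share CD19Cre and the Notch2 allele, come from lymph node and are described as pre-malignant. A further 3 groups of 2 libraries, NF-kB-activated (Rosa-NIKdeltaT3flSTOP with CD19Cre), control and lymphoma, entered the same fit and are quoted only as side values. The age and sex of the mice are not given in the sources used here. Nothing in the labels ties the 2 libraries of a group to different animals, and the p-values cover the spread between libraries only, which may be technical.

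In the noncanonical NF-kB pathway, TRAF3 and TRAF2 with the ubiquitin ligases encoded by Birc2 and Birc3 keep the kinase NIK (Map3k14) low until receptors such as BAFF-R, CD40 or the lymphotoxin receptor are engaged. NIK then activates IKK-alpha (Chuk), which drives processing of the Nfkb2 product and lets it enter the nucleus with RelB. The NIKdeltaT3 form lacks the region that TRAF3 binds. Notch2 signalling, transmitted by its intracellular part together with RBPJ, directs B cells to the marginal zone of the spleen, where CD21 (Cr2) is characteristically high. CD19Cre acts across the B lineage, and Ebf1 encodes a transcription factor on which that lineage depends.

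Expression is given as CPM, the counts of a gene scaled to a common library size after TMM normalisation, 1 value per library. Differences are fitted log2 fold changes, doubly activated minus Notch-labelled, with an adjusted p of edgeR over all tested genes, called under 0.05. The standard error given with them is the size of the log2 fold change over the square root of the F statistic of that test. Depth was 18791698 and 16380889 estimated counts in doubly activated libraries and 18864545 and 18802121 in Notch-labelled libraries.

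The Notch-labelled libraries stood apart from the other 8 in their stromal markers and B cell identity genes, and from the doubly activated ones in further traits that some other groups share. Stromal and endothelial markers other than Pecam1 and Vim summed to 11.9 and 11.6 CPM over 15 genes in doubly activated libraries and to 1021 and 1377 CPM in Notch-labelled libraries, with 12.0 to 21.7 CPM in the other 6. In doubly activated libraries 6 of these 15 genes had no count, in Notch-labelled libraries 1 and 2. T and NK cell markers (22 genes) summed to 229.5 and 218 CPM with both alleles and to 554 and 574 CPM in Notch-labelled libraries, with 1152 and 1074 CPM in lymphoma. Neutrophil markers (18 genes) summed to 18.3 and 10.9 CPM with both alleles and to 97.4 and 95.0 CPM in Notch-labelled libraries, with 544 and 167 CPM in NF-kB-activated libraries. Macrophage and monocyte markers (20 genes) summed to 125 and 96.2 CPM in doubly activated libraries and to 288 and 297 CPM in Notch-labelled libraries, with 384 and 278 CPM in NF-kB-activated and 152 and 418 CPM in control libraries. The B cell identity genes (29 genes) ran the other way, with 27625 and 27512 CPM in doubly activated libraries and 13575 and 12652 CPM in Notch-labelled libraries, against 28397 and 29399 CPM in control. Ddx3y, on the Y chromosome, stood at 109.6 and 187 CPM with both alleles and at 2.399 and 1.88 CPM in Notch-labelled libraries, with 59.8 and 0.653 CPM in control, so the sex of the animals and the compared groups cannot be told apart. The most used heavy chain V segment, Ighv1-26, held 6.38% and 7.39% of Ighv counts with both alleles (95% Wilson intervals 5.93% to 6.86% and 6.86% to 7.97%). In both Notch-labelled libraries it was Ighv1-55, with 92.9% and 93.9% (92.3% to 93.5% and 93.3% to 94.5%). In lymphoma libraries another segment held 92.5% and 92.3% (92.3% to 92.7% and 92.1% to 92.5%). The most used kappa chain V segment held 6.04% and 6.72% of Igkv counts with both alleles. In both Notch-labelled libraries it was Igkv12-41, with 92.7% and 94.1%, and in lymphoma libraries another held 90.8% and 91.7%. The intervals given cover counting error only. The Notch-labelled libraries thus share their main heavy and light chain segments. Whether they hold the same clone was not tested, so they may not be independent. The part of these differences in any result below was not tested, and fewer cells of a type and less RNA per cell cannot be told apart.

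**Figure D1:**
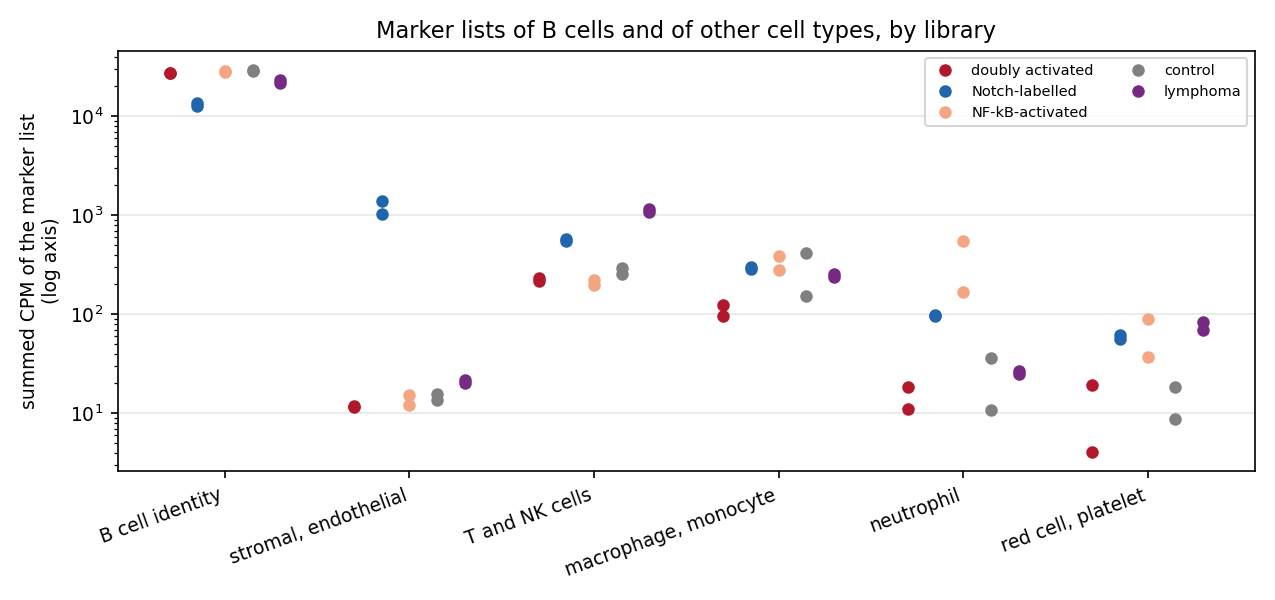
Summed CPM of marker lists (log axis) by library, 1 point per library, with doubly activated left of Notch-labelled libraries and the remaining groups to their right. Stromal markers stood at 1021 and 1377 CPM in the Notch-labelled libraries and at 11.6 to 21.7 CPM in all others, and B cell identity genes at 12652 to 13575 CPM in the Notch-labelled libraries and at 21838 CPM or more in all others.

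The 3 marker genes were all higher in doubly activated libraries. Map3k14 (ENSMUSG00000020941, chromosome 11, 103219762 to 103267472 in GRCm38), the gene of the activated kinase, was at 244 and 255 CPM in doubly activated and 36.5 and 33.4 CPM in Notch-labelled libraries (log2 2.84 ± 0.11, adjusted p = 1.33e-09). For comparison it was at 220 and 217 CPM in NF-kB-activated libraries and at 103 and 129.6 CPM in control, so the Notch-labelled libraries lay below control as well. Cr2 (chromosome 1, 195136811 to 195176716), the complement receptor CD21, reached 2940.3 and 2869 CPM in doubly activated and 111 and 109.9 CPM in Notch-labelled libraries (log2 4.72 ± 0.20, adjusted p = 5.73e-08). Ebf1 (chromosome 11, 44617317 to 45008091) was at 337 and 358 CPM in doubly activated and 45.03 and 46.9 CPM in Notch-labelled libraries (log2 2.92 ± 0.09, adjusted p = 3.70e-10). In control libraries Cr2 was at 2899 and 1874 CPM and Ebf1 at 351 and 313 CPM. The Notch-labelled libraries thus lay below control for these genes too. The compared groups did not overlap for any of the 3 marker genes, and the libraries of a group lay close together. Of all 15583 tested genes, 13229 did not overlap. Notch2 (chromosome 3, 98013527 to 98150361), activated in both genotypes, was at 702 and 753 CPM in doubly activated and 284 and 278 CPM in Notch-labelled libraries (log2 1.37 ± 0.09, adjusted p = 4.57e-08), and at 652 and 689.7 CPM in control. Gene totals do not separate a Rosa allele from the native copy. The Notch2 allele holds the intracellular part only, so these totals check the labels weakly.

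Against the labelled cell types, both groups held B cell transcripts, while the genes that define marginal zone cells differed in direction. Ms4a1 (CD20), Cd79a and Cd79b encode a surface protein and receptor subunits of B cells, and all 3 were higher with both alleles. Ms4a1 was at 1555 and 1485 CPM with both alleles and 420.4 and 405 CPM in Notch-labelled libraries. Cd79a was at 1550.4 and 1585 CPM with both alleles and 716 and 638 CPM in Notch-labelled libraries (log2 1.21 ± 0.09), which reversed to log2 -0.05 under the B cell identity scaling described below. The lineage factor Pax5 was lower, at 207 and 229 CPM in doubly activated and 409.9 and 378 CPM in Notch-labelled libraries (log2 -0.86 ± 0.17, adjusted p = 0.00201). Of the marginal zone markers, Cr2 and the sphingosine phosphate receptor S1pr3 were higher in the precursor-labelled doubly activated libraries. S1pr3 was at 238 and 257 CPM in doubly activated, against 121 and 124 CPM in Notch-labelled libraries (log2 1.01 ± 0.13, adjusted p = 3.83e-05), and turned to log2 -0.25 under the B cell identity scaling. The tetraspanin gene Cd9 was lower, at 86.03 and 105 CPM in doubly activated and 144 and 138 CPM in Notch-labelled libraries (log2 -0.56 ± 0.17, adjusted p = 0.0171), a call lost without doubly activated library 1 (adjusted p = 0.142) or without Notch-labelled library 1 (0.0723) or 2 (0.0508). The lipid-presenting Cd1d1 did not pass the test, at 168 and 219 CPM in doubly activated and 237 and 236 CPM in Notch-labelled libraries (log2 -0.29 ± 0.16, adjusted p = 0.142), but did without doubly activated library 2 (adjusted p = 0.0319) or control library 1 (0.0343). The follicular marker Fcer2a (CD23) was higher with both alleles, at 481 and 391 CPM in doubly activated, against 10.8 and 9.39 CPM in Notch-labelled libraries (log2 5.43 ± 0.19, adjusted p = 5.20e-09).

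**Figure D2:**
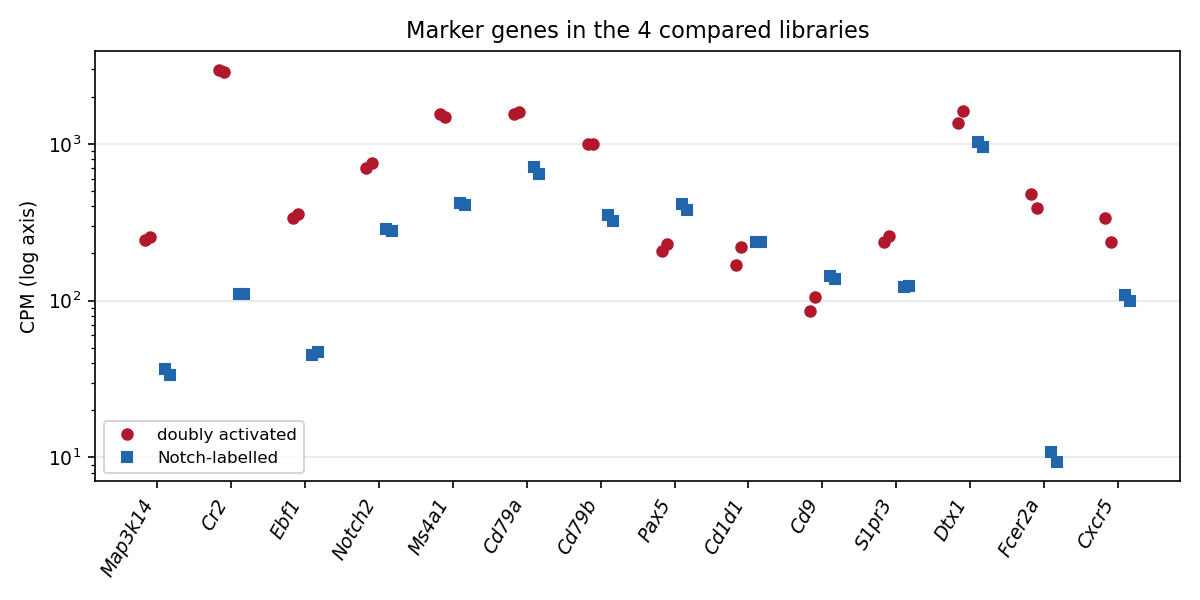
CPM (log axis) of marker genes in the 4 compared libraries, 1 point per library, doubly activated left (circles) and Notch-labelled right (squares). Cr2, Ebf1 and Fcer2a show the widest gaps, Cd1d1 lies close between the groups, and Pax5 and Cd9 are lower in the doubly activated libraries.

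Over the whole transcriptome the 2 groups differed at most tested genes. Of 15583 tested genes, 10002 (64.2%) were called, 4822 (30.9%) higher and 5180 (33.2%) lower in doubly activated libraries, and 5447 differed by over 2-fold, 2229 higher and 3218 lower. The median log2 difference was -0.02. Calls in any list below are read against these shares of 30.9% and 33.2%. By log2 of mean CPM plus 0.5, control libraries lay nearer the doubly activated than the Notch-labelled libraries at 76.0% of all tested genes. The share was 80.6% of genes called higher and 88.2% of those called lower. Since the B cell identity genes made up a smaller share of the Notch-labelled libraries, the fit was repeated with these genes as the scale, a choice made after the data were seen. It moved the median of all tested genes to -1.29 and gave 928 genes higher and 11510 lower. Under it a gene or list is therefore read against -1.29, and counts on this scale are given below wherever the prevailing direction of a list turned. Scaling by library size alone moved the median to -0.20 and the share of higher genes among calls to 38.8%, against 48.2% with TMM.

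**Figure D3:**
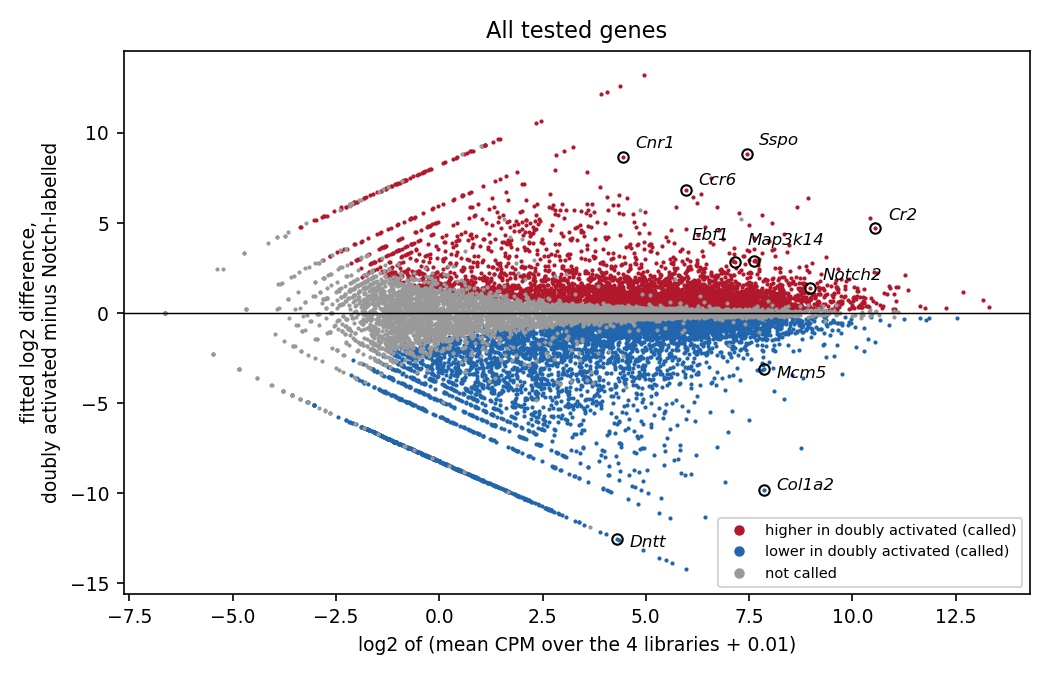
Fitted log2 difference, doubly activated minus Notch-labelled (vertical axis), against log2 of the mean CPM over the 4 libraries plus 0.01 (horizontal axis), 1 point per tested gene. The 4822 genes called higher are red, the 5180 called lower blue, and circles mark named genes. The straight lines of points at the edges are genes with no or few counts in 1 group, whose fitted value is no measure of size.

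The noncanonical NF-kB axis was higher with both alleles at all 8 members that act inside the cell and lower at 3 of its receptors. Of 14 tested members 10 were higher (71.4%, against 30.9% of all tested genes) and 3 lower, with a median of log2 0.89, while the B cell identity scaling gave 3 higher and 9 lower and a median of -0.38 beside -1.29 for all genes. Of the receptors, Tnfrsf13c, which encodes BAFF-R, was at 115 and 98.8 CPM in doubly activated, against 269 and 257 CPM in Notch-labelled libraries (log2 -1.30 ± 0.09, adjusted p = 1.42e-07). Tnfrsf13b, which encodes TACI, a second receptor for BAFF, was at 127 and 137 CPM in doubly activated, against 289 and 276 CPM in Notch-labelled libraries (log2 -1.10 ± 0.08, adjusted p = 1.65e-07). Both were lower with both alleles without overlap, and most tested genes did not overlap. Ltbr, the lymphotoxin receptor gene and a gene that stromal cells express, was at 0.334 and 0.131 CPM in doubly activated, against 15.3 and 18.3 CPM in Notch-labelled libraries (log2 -6.10 ± 1.01, adjusted p = 7.47e-04). Cd40 ran the other way at 201 and 218 CPM in doubly activated and 104 and 104 CPM in Notch-labelled libraries (log2 1.01 ± 0.09, adjusted p = 9.93e-07). Tnfrsf11a (RANK) stayed under 3 CPM in all 4 libraries, and its call was lost without doubly activated library 2 (adjusted p = 0.168) or without Notch-labelled library 2 (0.173). Tnfrsf4 (OX40) did not pass, at 4.29 and 5.23 CPM in doubly activated and 3.399 and 4.25 CPM in Notch-labelled libraries (adjusted p = 0.445).

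Among the regulators that hold NIK low, Birc3 was at 346 and 362 CPM in doubly activated and 101 and 102 CPM in Notch-labelled libraries (log2 1.81 ± 0.07, adjusted p = 1.97e-09). Its relative Birc2 was at 112 and 112 CPM with both alleles and 55.9 and 58.2 CPM in Notch-labelled libraries (log2 0.97 ± 0.08). The adaptors Traf3 (log2 0.71 ± 0.08) and Traf2 (log2 0.86 ± 0.10) were also higher, Traf3 at 215 and 227 CPM with both alleles and 139 and 131 CPM in Notch-labelled libraries. Downstream of NIK, Chuk was at 135 and 139 CPM with both alleles and 80.7 and 74.7 CPM in Notch-labelled libraries (log2 0.82 ± 0.12). Nfkb2 (chromosome 19, 46304320 to 46312385), which encodes the precursor of the p52 subunit, was at 654 and 683 CPM in doubly activated and 204 and 209 CPM in Notch-labelled libraries (log2 1.69 ± 0.09, adjusted p = 1.99e-08). Its partner Relb was at 127 and 155 CPM with both alleles and 78.2 and 71.3 CPM in Notch-labelled libraries (log2 0.91 ± 0.12, adjusted p = 2.34e-05). None of these 7 genes overlapped between the groups, which also held for 13229 of all 15583 tested genes. Under the B cell identity scaling Map3k14, Birc3 and Nfkb2 kept a positive difference, whereas Birc2, Cd40, Traf3, Traf2, Chuk and Relb turned negative, between log2 -0.25 and -0.56, each still above the -1.29 of all genes.

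**Figure D4:**
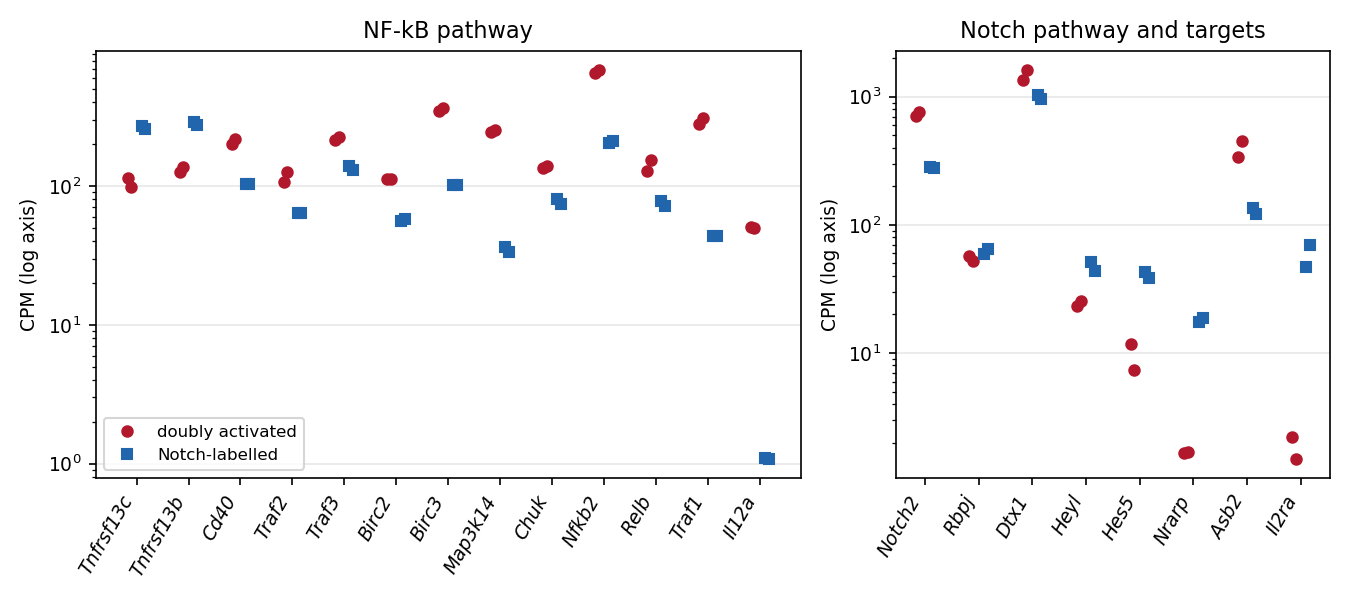
CPM (log axis) of noncanonical NF-kB genes with 2 NF-kB targets (left panel) and of Notch pathway and target genes (right panel) by library, doubly activated left (circles) and Notch-labelled right (squares) at each gene. Map3k14, Birc3, Nfkb2, Traf1 and Il12a were higher in doubly activated libraries also under the B cell identity scaling, the directions of Cd40, Traf2, Traf3, Birc2, Chuk, Relb and Dtx1 turned under it, and Heyl, Hes5, Nrarp and Il2ra were lower under both.

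The canonical subunits and inhibitors were higher or did not pass. Of 17 tested members 12 were higher and 0 lower (median log2 0.84), while the B cell identity scaling gave 2 higher and 8 lower. Rel, the c-Rel subunit gene, was at 155 and 216 CPM in doubly activated and 40.2 and 39.5 CPM in Notch-labelled libraries (log2 2.21 ± 0.16, adjusted p = 8.44e-07). The inhibitor gene Nfkbie was at 283 and 305 CPM with both alleles and 139 and 122 CPM in Notch-labelled libraries (log2 1.17 ± 0.09). Of the deubiquitinase genes, Cyld was at 243 and 238 CPM with both alleles and 114 and 113 CPM in Notch-labelled libraries. Otulin was at 85.5 and 91.7 CPM with both alleles and 39.3 and 36.7 CPM in Notch-labelled libraries. Of 30 tested NF-kB target genes 16 were higher and 7 lower (median log2 0.66), and 9 higher and 16 lower under the B cell identity scaling. Traf1, a TNF receptor adaptor, was at 281 and 307 CPM in doubly activated and 43.4 and 43.8 CPM in Notch-labelled libraries (log2 2.75 ± 0.09, adjusted p = 3.70e-10). Il12a, a subunit of interleukin-12, was at 50.8 and 50.2 CPM in doubly activated and 1.1 and 1.09 CPM in Notch-labelled libraries (log2 5.52 ± 0.15, adjusted p = 1.26e-10). Plek (pleckstrin) was at 326 and 289 CPM with both alleles and 66.9 and 63.4 CPM in Notch-labelled libraries (log2 2.24 ± 0.08). The apoptosis inhibitor gene Bcl2a1b was at 88.5 and 89.9 CPM with both alleles and 13.1 and 11.5 CPM in Notch-labelled libraries, with counts that near-identical copies of the gene may share.

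The promoters of Nfkb2 and Rel are shown because both genes were higher with both alleles and both hold kappa-B motifs, given in capitals. Sequences are from RefSeq (GRCm38.p6), 250 bases before to 50 after a listed start of the gene, on the gene's strand. The window shown for Nfkb2 lies inside the gene span given above. Nfkb2 is at chr19:46304487-46304786, plus strand, and Rel at chr11:23770920-23771219, minus strand.
Nfkb2: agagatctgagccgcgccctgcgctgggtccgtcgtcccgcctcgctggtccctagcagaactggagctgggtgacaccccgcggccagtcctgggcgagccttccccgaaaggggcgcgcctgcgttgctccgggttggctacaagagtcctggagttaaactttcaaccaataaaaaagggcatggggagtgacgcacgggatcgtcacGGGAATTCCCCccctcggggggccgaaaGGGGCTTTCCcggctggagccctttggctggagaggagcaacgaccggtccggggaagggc
Rel: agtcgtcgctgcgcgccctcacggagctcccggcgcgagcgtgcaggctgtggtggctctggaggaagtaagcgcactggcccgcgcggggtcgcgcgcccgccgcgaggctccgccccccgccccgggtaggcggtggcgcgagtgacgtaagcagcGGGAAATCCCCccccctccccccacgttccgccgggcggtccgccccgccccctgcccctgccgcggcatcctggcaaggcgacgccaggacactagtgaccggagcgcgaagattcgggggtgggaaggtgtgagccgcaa
The first capital run in Nfkb2 and the run in Rel each join 2 overlapping matches, and the last run in Nfkb2 is 1 match. Other windows listed for Nfkb2 (chr19:46305445-46305744 and chr19:46305680-46305979) also held matches. On both strands the kappa-B motif was found at 9 of 14 canonical NF-kB genes with a promoter in the table, at 2 of 13 noncanonical genes and at 6 of 25 target genes, against 5.14% of all 27025 genes with a promoter there. No match was found in the windows of Map3k14 and Traf1. A match describes letters and does not show binding.

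Genes of the Notch pathway itself were split, and several direct Notch targets were lower with both alleles. Of 29 tested pathway components 13 were higher and 9 lower (median log2 0.04), close to all tested genes, and 10 higher and 12 lower when scaled by library size alone. This list also turned to more lower than higher calls under the B cell identity scaling. The DNA-binding partner Rbpj did not pass, at 57.2 and 52.3 CPM in doubly activated and 59.5 and 64.6 CPM in Notch-labelled libraries (log2 -0.18 ± 0.11, adjusted p = 0.161). Besides Notch2, the gamma-secretase gene Psen2 was higher, at 81.5 and 74.1 CPM with both alleles and 26.9 and 24.03 CPM in Notch-labelled libraries (log2 1.61 ± 0.10). Notch1 was lower, at 59.02 and 62.5 CPM in doubly activated, against 212 and 217 CPM in Notch-labelled libraries (log2 -1.82 ± 0.10, adjusted p = 2.04e-08), a call lost with an effective length offset (adjusted p = 0.172). The ligand Jag1 was at 0.947 and 0.589 CPM with both alleles and 28.1 and 26.1 CPM in Notch-labelled libraries (log2 -5.11 ± 0.33, adjusted p = 6.52e-08). Notch3, a receptor of vascular and stromal cells, had 1 count over the doubly activated libraries and 561 over the Notch-labelled ones, 463-fold (exact counting interval 82.8 to 18340.0) lower with both alleles.

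Of 21 tested Notch targets 6 were higher and 10 lower (28.6% and 47.6%, against 30.9% and 33.2% of all tested genes), with a median of log2 -0.63. The feedback inhibitor Nrarp was at 1.67 and 1.701 CPM in doubly activated and 17.4 and 18.9 CPM in Notch-labelled libraries (log2 -3.42 ± 0.31, adjusted p = 9.91e-07). The repressor genes Hes5 and Heyl were lower too, Hes5 at 11.7 and 7.39 CPM in doubly activated, against 43.1 and 38.6 CPM in Notch-labelled libraries (log2 -2.09 ± 0.23, adjusted p = 7.66e-06). Heyl was at 23.3 and 25.6 CPM in doubly activated, against 50.9 and 44.1 CPM in Notch-labelled libraries (log2 -0.96 ± 0.14, adjusted p = 5.32e-05). In control libraries Heyl was at 0.4305 and 0.381 CPM. Hes1 did not pass, at 62.9 and 79.6 CPM in doubly activated and 55.03 and 53.9 CPM in Notch-labelled libraries (adjusted p = 0.087), but did without doubly activated library 1 (0.0341) or without control library 1 (0.00594) or 2 (0.00404). Il2ra, the interleukin-2 receptor alpha chain, was at 2.23 and 1.505 CPM with both alleles and 47.1 and 70.1 CPM in Notch-labelled libraries (log2 -4.95 ± 0.25, adjusted p = 1.02e-08). Granzyme B (Gzmb) was at 1.34 and 1.24 CPM with both alleles and 7.95 and 9.39 CPM in Notch-labelled libraries. The cyclin gene Ccnd1 was at 3.06 and 1.24 CPM with both alleles and 60.5 and 57.4 CPM in Notch-labelled libraries (log2 -4.74 ± 0.32).

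Other Notch targets, among them those tied to marginal zone B cells, were higher with both alleles. The ubiquitin ligase gene Dtx1 was at 1347 and 1609.8 CPM in doubly activated and 1022 and 960.3 CPM in Notch-labelled libraries (log2 0.58 ± 0.12, adjusted p = 0.00128), and turned to log2 -0.68 under the B cell identity scaling. Asb2, another ubiquitin ligase subunit, was at 340.2 and 449.8 CPM in doubly activated, against 135 and 122 CPM in Notch-labelled libraries (log2 1.62 ± 0.14, adjusted p = 2.21e-06). The transcription factor genes Runx3 (log2 0.56 ± 0.09) and Myc (log2 1.13 ± 0.36, adjusted p = 0.0358) were higher by a small margin and turned negative under that scaling. Myc was at 496 and 747 CPM in doubly activated, against 287 and 282 CPM in Notch-labelled libraries, and its call was lost without doubly activated library 2 (adjusted p = 0.155). It was also lost without either Notch-labelled library (0.126 and 0.133) or either lymphoma library (0.0582 and 0.0574). Hey1 stayed under 1 CPM in every library, with 30 counts over the doubly activated and 3 over the Notch-labelled libraries, 12.1-fold (exact counting interval 3.77 to 61.99) higher (adjusted p = 0.0482), and its call was lost without any single library other than the control ones (adjusted p = 0.0566 to 0.251). The RBPJ motif TGGGAA, on either strand, was in the promoter window of 6 of 16 listed targets, against 28.3% of all 27025 genes with a promoter in the table, and Cr2 (chr1:195176670-195176969, minus strand) is shown as the match-holding target with the widest gap among those higher with both alleles, its match in capitals.
Cr2: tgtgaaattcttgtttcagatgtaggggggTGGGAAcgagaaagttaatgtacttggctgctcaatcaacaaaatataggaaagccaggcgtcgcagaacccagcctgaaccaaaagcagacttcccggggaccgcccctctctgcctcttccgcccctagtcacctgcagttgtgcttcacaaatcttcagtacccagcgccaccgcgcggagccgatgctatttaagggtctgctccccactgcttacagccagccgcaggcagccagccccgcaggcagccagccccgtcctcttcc

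Genes of mature follicular and marginal zone cells separated the groups unevenly. Of 17 tested follicular genes 16 were higher and 0 lower with both alleles (median log2 1.66), and 9 higher and 4 lower under the B cell identity scaling. The chemokine receptor Ccr6 was at 137 and 112 CPM in doubly activated, against 1.399 and 0.742 CPM in Notch-labelled libraries (log2 6.86 ± 0.22, adjusted p = 1.43e-09). The transcription factor Foxo1 was at 201 and 179 CPM with both alleles and 40.7 and 40.8 CPM in Notch-labelled libraries (log2 2.22 ± 0.10). The complement regulator Cd55 was at 254 and 275 CPM with both alleles and 50.2 and 50.6 CPM in Notch-labelled libraries (log2 2.39 ± 0.11). The follicle-homing receptor Cxcr5 was at 336 and 236 CPM with both alleles and 108 and 99.6 CPM in Notch-labelled libraries (log2 1.46 ± 0.16). Of 26 marginal zone genes 12 were higher and 6 lower (median log2 0.30), and 6 higher and 16 lower under the B cell identity scaling. Abcb1a, a drug efflux transporter, was at 47.9 and 56 CPM in doubly activated, against 1.85 and 1.88 CPM in Notch-labelled libraries (log2 4.79 ± 0.18, adjusted p = 1.31e-09). The oxysterol receptor Gpr183 was at 151 and 178 CPM with both alleles and 42.7 and 38.8 CPM in Notch-labelled libraries (log2 2.01 ± 0.13). Zbtb32, a repressor that limits B cell responses, was lower, at 0.947 and 1.05 CPM in doubly activated, against 18.99 and 15.03 CPM in Notch-labelled libraries (log2 -4.09 ± 0.28, adjusted p = 1.05e-07).

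Antigen receptor signalling and antigen presentation genes were mostly higher with both alleles. All 14 tested MHC class II genes were higher (median log2 1.66), with 9 higher and 2 lower under the B cell identity scaling. Ciita, the class II transactivator, was at 709 and 678 CPM in doubly activated and 227 and 211 CPM in Notch-labelled libraries (log2 1.66 ± 0.08, adjusted p = 6.11e-09). H2-Aa, a class II alpha chain, was at 2453 and 2399.7 CPM with both alleles and 519 and 477 CPM in Notch-labelled libraries (log2 2.29 ± 0.10). The chains of the peptide-loading modulator H2-O were higher as well, H2-Ob at 962 and 861 CPM with both alleles and 138 and 128 CPM in Notch-labelled libraries. H2-Oa was at 300.4 and 306 CPM with both alleles and 69.97 and 61.1 CPM in Notch-labelled libraries. Of 24 receptor signalling genes 19 were higher and 1 lower (median log2 0.88), while the B cell identity scaling gave 4 higher and 14 lower. Rasgrp3, a Ras activator, was at 265 and 219 CPM in doubly activated, against 33.1 and 32.98 CPM in Notch-labelled libraries (log2 2.88 ± 0.12, adjusted p = 3.17e-09). The receptor chain Cd79b was at 998 and 1002 CPM with both alleles and 353 and 321 CPM in Notch-labelled libraries. The adaptor Pik3ap1 was at 227 and 218 CPM with both alleles and 106 and 97.5 CPM in Notch-labelled libraries (log2 1.13 ± 0.08). Of 21 inhibitory coreceptor and phosphatase genes 11 were higher and 3 lower, and 6 higher and 12 lower under that scaling. The Csk-binding adaptor Pag1 was at 165 and 138 CPM with both alleles and 16.4 and 17.01 CPM in Notch-labelled libraries (log2 3.18 ± 0.10, adjusted p = 4.24e-10). The docking protein Dok3 (log2 2.46 ± 0.11) and the lectin Siglecg (log2 1.83 ± 0.08) were also higher.

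Several receptors and ligands for cell contact stood far apart. Of 20 chemokine and positioning receptors 12 were higher and 2 lower (median log2 0.97), and 8 higher and 6 lower with a median of -0.29 under the B cell identity scaling. P2ry10, a lysophospholipid receptor, was at 94.3 and 93.9 CPM in doubly activated, against 3.998 and 3.76 CPM in Notch-labelled libraries (log2 4.60 ± 0.14, adjusted p = 3.70e-10). The related receptor Gpr174 was at 57.2 and 51.3 CPM in doubly activated, against 2.399 and 2.47 CPM in Notch-labelled libraries (log2 4.47 ± 0.17, adjusted p = 1.97e-09). Costimulatory and checkpoint ligands were split, 8 higher and 9 lower of 21. Icosl, the ligand of ICOS, was at 487 and 458 CPM in doubly activated, against 28.99 and 29.02 CPM in Notch-labelled libraries (log2 4.03 ± 0.10, adjusted p = 9.06e-11). Pdcd1lg2 (PD-L2) was at 9.08 and 9.62 CPM in doubly activated, against 0.2499 and 0.494 CPM in Notch-labelled libraries (log2 4.62 ± 0.32, adjusted p = 1.19e-07). The inhibitory receptor Btla was at 383 and 296 CPM with both alleles and 91.4 and 83.3 CPM in Notch-labelled libraries (log2 1.96 ± 0.12). Cd276 (B7-H3), which stromal cells also express, was lower, at 1.06 and 0.7196 CPM in doubly activated, against 29.9 and 27.7 CPM in Notch-labelled libraries (log2 -4.996 ± 0.30, adjusted p = 3.41e-08).

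Genes of early B cell development and of B-1 cells were mostly lower with both alleles. Of 17 tested early B and recombination genes 3 were higher and 13 lower (median log2 -1.33). Sox4, a transcription factor of progenitors, was at 5.74 and 3.99 CPM in doubly activated, against 893 and 837 CPM in Notch-labelled libraries (log2 -7.46 ± 0.40, adjusted p = 6.44e-06). Dntt (chromosome 19, 41029275 to 41059525), the terminal transferase that adds bases at V(D)J joints, had no count in doubly activated libraries and 34.5 and 43.96 CPM in Notch-labelled libraries, at least 435-fold lower against 3 counts over the group. Akap12 (log2 1.84 ± 0.20) and Rgs18 (log2 2.40 ± 0.31) ran the other way. Of 14 B-1 cell genes 1 was higher and 10 lower (median log2 -1.47). Bhlhe41, a repressor required in B-1 cells, was at 43.4 and 59.01 CPM with both alleles and 136 and 122 CPM in Notch-labelled libraries (log2 -1.33 ± 0.15, adjusted p = 1.72e-05). The lectin Lgals1, which stromal cells also express, was at 2.005 and 2.16 CPM in doubly activated, against 102 and 145 CPM in Notch-labelled libraries (log2 -5.89 ± 0.43, adjusted p = 1.41e-05). Of 19 plasma cell genes 3 were higher and 9 lower (median log2 -0.63). Creb3l2 (log2 -2.98 ± 0.13) and Derl3 (log2 -2.95 ± 0.15), both of the secretory pathway, were lower, and the stress-induced Herpud1 (log2 1.37 ± 0.10) higher. Germinal centre genes were split, 8 higher and 8 lower of 20. The receptor gene Il21r was at 157 and 127 CPM with both alleles and 26.8 and 24.5 CPM in Notch-labelled libraries, and the adaptor Stap1 at 78.2 and 61.8 CPM with both alleles and 6.95 and 7.07 CPM in Notch-labelled libraries. Plxnb2, a semaphorin receptor, was lower at 25.9 and 27.5 CPM in doubly activated, against 526 and 519.9 CPM in Notch-labelled libraries (log2 -4.29 ± 0.12, adjusted p = 1.26e-10).

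Cell cycle genes were lower with both alleles at all tested members but 1. Of 33 tested members 0 were higher and 32 lower (97.0%, against 33.2% of all tested genes), with a median of log2 -2.85. Summed over the list, they held 1160.0 and 1110.0 CPM in doubly activated libraries and 6347 and 6208 CPM in Notch-labelled libraries, beside 1122 and 919 CPM in NF-kB-activated, 1705 and 1415 CPM in control and 2831 and 2984 CPM in lymphoma libraries. Of the replication helicase genes, Mcm3 was at 58.5 and 51.03 CPM in doubly activated and 323 and 309 CPM in Notch-labelled libraries (log2 -2.53 ± 0.09, adjusted p = 9.71e-10). Mcm5 was at 52.6 and 43.8 CPM with both alleles and 430.1 and 406 CPM in Notch-labelled libraries (log2 -3.11 ± 0.12, adjusted p = 2.02e-09), and Mcm2 at 59.6 and 52.01 CPM with both alleles and 409 and 399 CPM in Notch-labelled libraries (log2 -2.85 ± 0.12, adjusted p = 2.21e-09). The mitotic transcription factor Foxm1 was at 14.6 and 13.5 CPM in doubly activated, against 118 and 111 CPM in Notch-labelled libraries (log2 -3.02 ± 0.12, adjusted p = 2.02e-09). The exception was the thymidine kinase gene Tk1, named after its values were seen. It was at 116 and 119 CPM in doubly activated and 103 and 107 CPM in Notch-labelled libraries (log2 0.16 ± 0.09, adjusted p = 0.125). Under the B cell identity scaling Tk1 turned to log2 -1.11. It passed as higher without control library 2 and when the 4 compared libraries were fitted alone.

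The promoters of Mcm5 and Mcm3 are shown with their E2F motifs (TTCCCGC or TTGGCGC, both strands) in capitals, since E2F factors are known regulators of replication genes. Both windows are from RefSeq (GRCm38.p6), Mcm5 at chr8:75109259-75109558, plus strand, and Mcm3 at chr1:20820263-20820562, minus strand.
Mcm5: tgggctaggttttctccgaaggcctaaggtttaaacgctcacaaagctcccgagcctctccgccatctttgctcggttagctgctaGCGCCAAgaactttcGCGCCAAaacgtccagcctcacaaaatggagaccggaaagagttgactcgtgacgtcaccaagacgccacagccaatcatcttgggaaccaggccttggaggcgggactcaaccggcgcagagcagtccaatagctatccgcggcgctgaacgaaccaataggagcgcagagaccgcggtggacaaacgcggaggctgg
Mcm3: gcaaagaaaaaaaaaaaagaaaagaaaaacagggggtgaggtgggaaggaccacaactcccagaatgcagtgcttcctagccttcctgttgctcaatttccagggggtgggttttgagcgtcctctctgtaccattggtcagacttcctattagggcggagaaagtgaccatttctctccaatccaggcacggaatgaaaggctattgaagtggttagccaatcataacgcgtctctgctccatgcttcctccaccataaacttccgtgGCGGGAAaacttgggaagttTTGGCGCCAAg
The last capital run of Mcm3 joins 2 overlapping matches on opposite strands. In all, 12 of 27 listed cell cycle genes with a promoter in the table held a match, against 7.79% of all 27025 genes with one, and the window of Mcm2 held none.

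Growth and secretion genes were mostly lower as well. Of 25 genes of the Myc network and ribosome biogenesis 5 were higher and 17 lower (median log2 -0.57). Spermidine synthase (Srm) was at 33.1 and 30.03 CPM in doubly activated, against 128 and 122 CPM in Notch-labelled libraries (log2 -1.98 ± 0.11, adjusted p = 1.68e-08). The nucleolar Nolc1 was at 96.9 and 87.5 CPM with both alleles and 189 and 182 CPM in Notch-labelled libraries (log2 -1.01 ± 0.09). Mxd1, a Myc antagonist, was higher at 45.7 and 55.2 CPM with both alleles and 16.9 and 18.7 CPM in Notch-labelled libraries (log2 1.502 ± 0.13). Of 20 glucose uptake and glycolysis genes 6 were higher and 12 lower (median log2 -1.06). Pyruvate kinase (Pkm) was at 443 and 475 CPM in doubly activated, against 1737 and 1704 CPM in Notch-labelled libraries (log2 -1.91 ± 0.10, adjusted p = 1.10e-08). Pgam1 (log2 -1.40 ± 0.08) and Tpi1 (log2 -1.65 ± 0.10) were lower too, with processed copies in the genome that may share reads. Of 24 endoplasmic reticulum folding and secretion genes 4 were higher and 15 lower (median log2 -0.64). Sdf2l1 was at 14.7 and 15.9 CPM in doubly activated, against 97.7 and 90.5 CPM in Notch-labelled libraries (log2 -2.62 ± 0.11, adjusted p = 2.39e-09). Creld2 was at 25.4 and 23.4 CPM with both alleles and 102 and 103 CPM in Notch-labelled libraries (log2 -2.07 ± 0.09). The disulfide isomerase genes Pdia6 and P4hb were at log2 -1.78 ± 0.08 and log2 -1.46 ± 0.07. Of 19 cell cycle inhibitors and p53 targets 6 were higher and 8 lower (31.6% and 42.1%, against 30.9% and 33.2% of all tested genes), so this list was split. Cdkn1a (p21) was at 0.668 and 0.393 CPM in doubly activated, against 32.4 and 42.03 CPM in Notch-labelled libraries (log2 -6.09 ± 0.33, adjusted p = 1.44e-08). Cdkn2c (p18) was at 7.13 and 6.87 CPM with both alleles and 52.3 and 57.5 CPM in Notch-labelled libraries (log2 -2.97 ± 0.18). The antiproliferative Btg1 was higher at 1258 and 1476 CPM with both alleles and 246 and 251 CPM in Notch-labelled libraries (log2 2.46 ± 0.14).

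**Figure D5:**
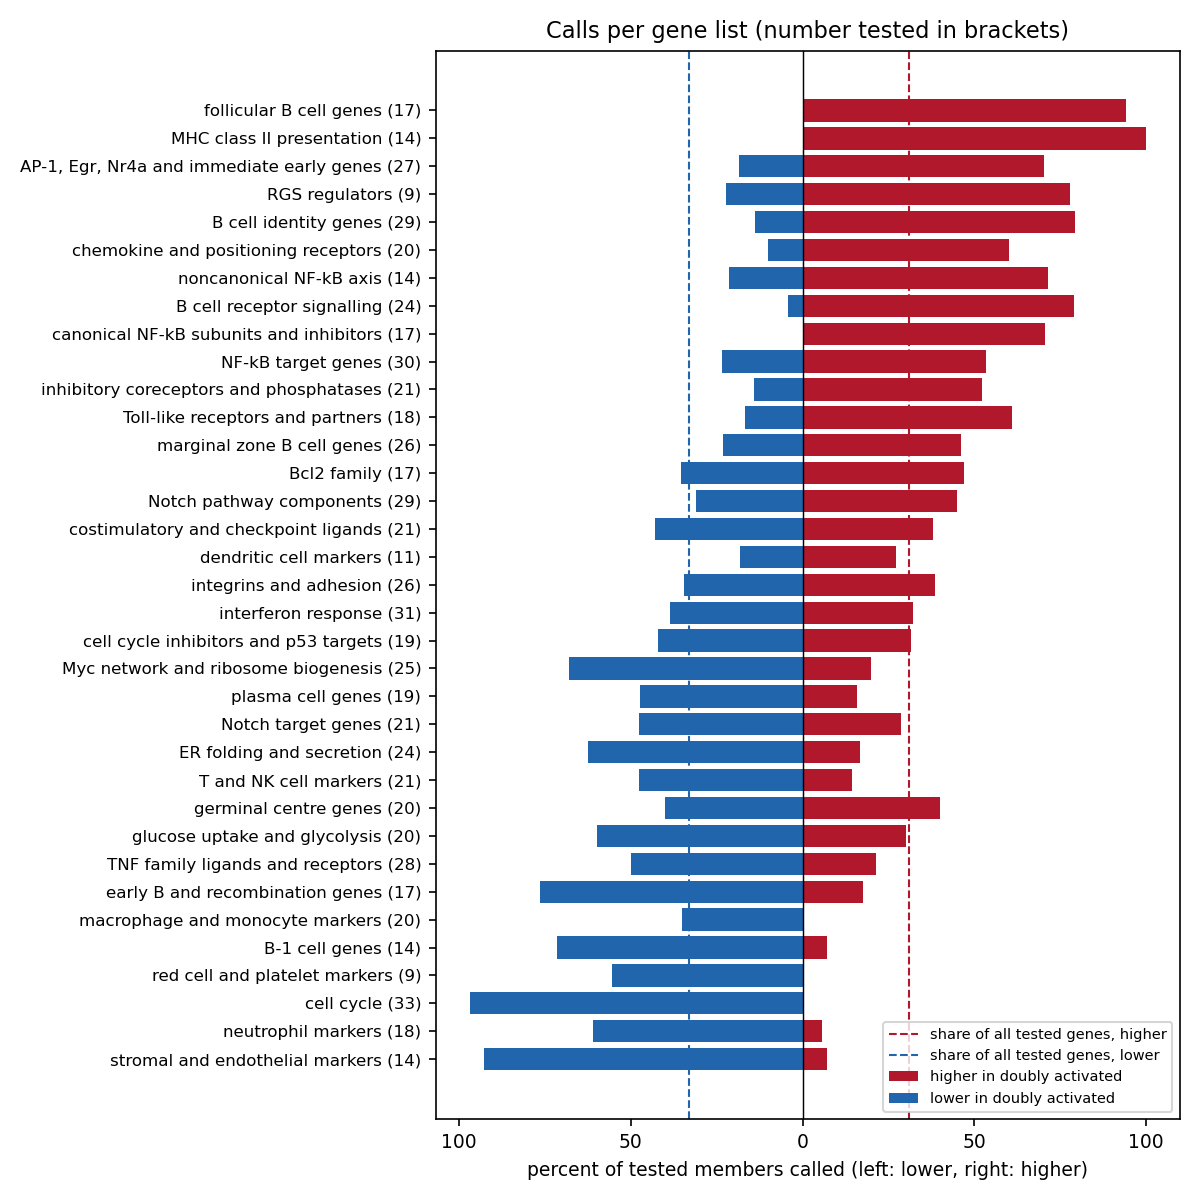
Percent of tested members called higher (right, red) and lower (left, blue) in doubly activated libraries for each gene list, ordered by the median log2 difference, with dashed lines at the shares of all tested genes (30.9% and 33.2%). Follicular and MHC class II genes lie at the top, also under the B cell identity scaling, under which the noncanonical and canonical NF-kB, NF-kB target, marginal zone, receptor signalling, inhibitory coreceptor, Toll-like, Bcl2, RGS, Notch pathway, integrin and dendritic lists turned to more lower than higher calls, the Notch pathway and integrin lists also when scaled by library size alone. The B cell identity list sets that scale and is therefore not counted among them. The integrin list also turned to more lower than higher calls under upper quartile scaling, DESeq2 and a fit of the 4 compared libraries alone. Cell cycle and stromal genes lie at the bottom.

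Immediate early genes were higher with both alleles but differed between the doubly activated libraries themselves. Of 27 tested members 19 were higher and 5 lower (median log2 1.65), with 10 higher and 8 lower under the B cell identity scaling. Summed CPM was 5207 and 8359 in doubly activated libraries and 1660.0 and 1723 in Notch-labelled libraries, beside 1644 and 1740.0 in NF-kB-activated and 3679 and 2497 in control libraries. Doubly activated library 2 was the higher of the pair for most members. The AP-1 gene Fosb was at 556 and 1042 CPM in doubly activated, against 13.5 and 13 CPM in Notch-labelled libraries (log2 5.91 ± 1.01, adjusted p = 0.0039). Atf3 was at 43.99 and 75.8 CPM in doubly activated, against 1.499 and 2.32 CPM in Notch-labelled libraries (log2 4.96 ± 0.37, adjusted p = 1.25e-06). The activation marker Cd69 was at 132 and 199 CPM in doubly activated, against 5.45 and 6.48 CPM in Notch-labelled libraries (log2 4.79 ± 0.26, adjusted p = 8.33e-07). Zfp36, which speeds mRNA decay, was at 599.6 and 838 CPM with both alleles and 118 and 122 CPM in Notch-labelled libraries (log2 2.58 ± 0.15, adjusted p = 1.83e-07). Maff was at 16.4 and 31.99 CPM with both alleles and 3.15 and 2.52 CPM in Notch-labelled libraries (log2 3.09 ± 0.31). With doubly activated library 2 left out, 18 members were higher and 4 lower (median log2 1.44).

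Smaller families were mixed. Of 31 interferon response genes 10 were higher and 12 lower (median log2 -0.20), close to the shares of all tested genes. The antiviral synthetase genes Oas1a and Oasl1 were higher, at log2 2.05 ± 0.12 and log2 3.09 ± 0.25, and the GTPase Gbp2 was lower at 60.3 and 61.2 CPM in doubly activated, against 291 and 282 CPM in Notch-labelled libraries (log2 -2.24 ± 0.11, adjusted p = 5.65e-09). Of 28 TNF family ligands and receptors 6 were higher and 14 lower (median log2 -1.18). The receptor gene Cd27 was at 13.5 and 13.1 CPM in doubly activated, against 67.8 and 64.2 CPM in Notch-labelled libraries (log2 -2.31 ± 0.13, adjusted p = 1.56e-08). Lymphotoxin alpha (Lta) was at 43.3 and 41.4 CPM with both alleles and 12.8 and 12.3 CPM in Notch-labelled libraries (log2 1.75 ± 0.13). Of 18 Toll-like receptors and partners 11 were higher and 3 lower (median log2 0.39), while the B cell identity scaling gave 2 higher and 14 lower. The Toll-like receptor homologue Cd180 was at 375 and 376 CPM with both alleles and 98.4 and 101 CPM in Notch-labelled libraries (log2 1.91 ± 0.16). The inhibitory kinase Irak3 was at 33.02 and 37.7 CPM with both alleles and 9.55 and 8.9 CPM in Notch-labelled libraries (log2 1.94 ± 0.12). Tlr6 was lower at 8.46 and 9.94 CPM with both alleles and 19.5 and 20.5 CPM in Notch-labelled libraries (log2 -1.12 ± 0.15). Of 9 RGS genes, whose products end G protein signals, 7 were higher and 2 lower, and 3 higher and 4 lower under that scaling. Rgs1 was at 128 and 194 CPM in doubly activated, against 1.45 and 1.83 CPM in Notch-labelled libraries (log2 6.61 ± 0.69, adjusted p = 3.01e-04). Rgs14 was at 83.97 and 96.95 CPM with both alleles and 30.9 and 29.7 CPM in Notch-labelled libraries (log2 1.58 ± 0.13). Rgs16 was lower at 0.334 and 0.327 CPM with both alleles and 28.9 and 39.5 CPM in Notch-labelled libraries (log2 -6.66 ± 0.33, adjusted p = 7.88e-09). Of 17 Bcl2 family genes 8 were higher and 6 lower, with more lower than higher calls under the B cell identity scaling. The death-promoting Pmaip1 (NOXA) was at 79.6 and 112 CPM in doubly activated, against 6.497 and 6.53 CPM in Notch-labelled libraries (log2 3.88 ± 0.29, adjusted p = 5.09e-06). The survival gene Bcl2l2 was at 31.01 and 26.2 CPM with both alleles and 5.95 and 10.1 CPM in Notch-labelled libraries (log2 1.83 ± 0.19). Bak1 was lower at 52.01 and 59.1 CPM with both alleles and 109 and 104 CPM in Notch-labelled libraries (log2 -0.94 ± 0.09). Zbtb46, a transcription factor of dendritic cells, was at 27.5 and 30.2 CPM in doubly activated, against 2.55 and 2.37 CPM in Notch-labelled libraries (log2 3.55 ± 0.22, adjusted p = 4.37e-08). Its list of 11 had 3 higher and 2 lower, and turned to more lower than higher calls under the B cell identity scaling.

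The 15 largest rises were led by genes that the Notch-labelled libraries hardly held. Slc47a1, a transporter of organic cations, was at 11.5 and 10.4 CPM with both alleles and had no count in Notch-labelled libraries, at least 148-fold higher against 3 counts over the group. Sspo, which encodes SCO-spondin, was at 354 and 342 CPM in doubly activated, against 0.3998 and 1.09 CPM in Notch-labelled libraries (log2 8.85 ± 0.26, adjusted p = 4.06e-09). The cannabinoid receptor gene Cnr1 was at 50 and 36.7 CPM in doubly activated, against 0.1499 and 0.0494 CPM in Notch-labelled libraries (log2 8.68 ± 0.34, adjusted p = 3.39e-09). In NF-kB-activated libraries Sspo was at 373 and 388 CPM and Cnr1 at 146 and 192 CPM. In control libraries Sspo was at 0.246 and 0.925 CPM and Cnr1 at 0.246 and 0.218 CPM. Adrenomedullin (Adm) had 1 count over the Notch-labelled libraries and was 747-fold (exact counting interval 134 to 29550.0) higher. It was at 16.5 and 21 CPM in the 2 doubly activated libraries, and its call was lost without any of the 4 libraries (adjusted p = 0.0512 to 0.113). Nhs, also with 1 count, was 563-fold (exact counting interval 100.5 to 22280.0) higher. The kinase genes Lrrk2 and Map3k19 were higher, Lrrk2 at 971 and 939 CPM in doubly activated, against 10.1 and 12.7 CPM in Notch-labelled libraries (log2 6.39 ± 0.15, adjusted p = 7.28e-11). Map3k19 was at 43.5 and 37.03 CPM in doubly activated, against 0.2499 and 0.593 CPM in Notch-labelled libraries (log2 6.55 ± 0.22, adjusted p = 6.02e-10). The elongation factor gene Ell3 was at 205 and 213 CPM in doubly activated, against 3.65 and 3.36 CPM in Notch-labelled libraries (log2 5.89 ± 0.15, adjusted p = 1.26e-10). Control libraries, unlike for Sspo and Cnr1, held Lrrk2 at 530 and 462 CPM, Map3k19 at 40.5 and 44.4 CPM and Ell3 at 154 and 122 CPM. They held Ccr6 at 110 and 104 CPM, so the Notch-labelled libraries lay far below control for these genes. Hspa1a, an inducible heat shock gene, was at 126 and 255 CPM in doubly activated, against 0.4998 and 1.58 CPM in Notch-labelled libraries (adjusted p = 0.041), a call lost without any single library other than the control ones (adjusted p = 0.0637 to 0.175). Ms4a14, the cyclic nucleotide-gated channel gene Cnga3 and the aldehyde oxidase gene Aox4 complete the list with Ccr6, Rgs1 and Fosb, at log2 5.72 to 5.75 for these first 3.

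The 15 largest falls were mostly genes of fibroblasts, vessel walls and extracellular matrix, in step with the stromal markers of the Notch-labelled libraries. Of 14 tested stromal and endothelial markers 13 were lower and 1, Pecam1, which B cells also express, was higher (median log2 -7.48, and -6.80 with genes without a count at their bound). Col1a2, a collagen chain gene, was at 0.557 and 0.458 CPM in doubly activated, against 391 and 534 CPM in Notch-labelled libraries (log2 -9.80 ± 0.24, adjusted p = 1.62e-10). Col1a1 was at 1.45 and 0.981 CPM with both alleles and 182 and 237 CPM in Notch-labelled libraries and Sparc at 0.668 and 0.393 CPM with both alleles and 76.3 and 96.8 CPM in Notch-labelled libraries. Col3a1 was 537-fold (exact counting interval 184 to 2606) lower with both alleles. Of the 15, 12 had no count in either doubly activated library. The growth factor receptor genes Pdgfra and Pdgfrb were at least 250-fold and 173-fold lower, each against 3 counts over the group. On the same floor, Cav1 (caveolin) was at least 230.5-fold, the collagen cross-linking enzyme Lox 365-fold, Gas1 215-fold, tenascin-C (Tnc) 162-fold, Cd109 164-fold, Cd248 186-fold, carboxypeptidase E (Cpe) 676-fold and Kirrel 450.5-fold lower. Ccn1, Aebp1 and Col5a1, with 1 or 2 counts with both alleles, were 3204-fold (exact counting interval 575 to 126600.0), 2874-fold (exact counting interval 795 to 23740.0) and 2662-fold (exact counting interval 477 to 105200.0) lower. Of the others, Dntt is given above, and Eno1b is a near copy of Eno1 with which reads may be exchanged, so that its value is uncertain. Whether these genes were transcribed in the sorted B cells or in cells sorted with them cannot be told from bulk counts.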

How the data were processed

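RNA of sorted B lineage cells was sequenced in 10 libraries, 2 for each of 5 groups, and 4 libraries are compared here. The authors deposited estimated counts and TPM per transcript, the counts unscaled per the file headers, and per the submitters' processing notes kallisto 0.44.0 and mm10 were used. TPM served only for the effective lengths of an alternative. Of 88198 transcripts per file, 86031 matched GENCODE M21 (GRCm38, positions counted from 1). The 2167 unmatched ones held 1.31% and 1.33% of counts in doubly activated and 1.14% and 1.13% in Notch-labelled libraries and were left out. Counts were summed to 30205 genes and rounded. Genes passing filterByExpr (minimum count 10, minimum total 15) were tested with edgeR 4.0.16 (R 4.3.3), scaled by TMM, with its robust quasi-likelihood model over the 10 libraries and 5 groups, two-sided, with Benjamini-Hochberg adjustment over 15583 genes. The 5 residual degrees of freedom and the biological coefficient of variation of 0.121 come from all groups. The fit was also run on simulated data with far fewer changed genes than were called here. That run therefore does not check the error rate or the scaling of this contrast.

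The members, gene lists and tests were chosen with earlier results of these data known. Named genes were the 15 largest rises and falls that averaged 10 CPM or more in either group without overlap (leaving out predicted, receptor and Y-linked genes), up to 4 members per list with the smallest p, members of the noncanonical NF-kB and Notch lists, and the marker genes. Not every gene so chosen is printed. Chi-square per degree of freedom between the libraries of a group was 9.83 for doubly activated and 4.31 for Notch-labelled libraries, above counting error. Alternatives were RLE (DESeq2 1.42.0), upper quartile and library size scaling, other filters, DESeq2, limma-voom (limma 3.58.1), fewer libraries, an effective length offset, receptor genes left out, a replicate block, a minimum fold change, each library left out, and, added after the data were seen, scaling to B cell identity genes.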

Additional observations from a re-analysis of the deposited data

How the results depend on the processing

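Counts of called genes stayed within 1.5 times of 10002 under all alternatives run except a test against a 1.5-fold change, which called 5980 genes (2621 higher, 3359 lower). Scaling to B cell identity genes gave 928 higher, 11510 lower and 9544 by over 2-fold, where TMM gave 4822, 5180 and 5447. With each of the 10 libraries left out in turn, 8341 to 10462 genes were called, 4010 to 5151 higher, 4306 to 5437 lower and 4834 to 5727 by over 2-fold. A library left alone in its group is assumed to vary like the other groups.

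Of the 152 genes named, 120 kept direction and side of the threshold in all 24 alternatives. No direction changed except under scaling to B cell identity genes, where the log2 difference became -0.29 for Birc2, -0.25 for Cd40, -0.0511 for Cd79a, -0.45 for Chuk, -0.18 for Cyld, -0.68 for Dtx1, -0.87 for Hes1, -0.13 for Myc, -0.0947 for Nfkbie, -0.0422 for Otulin, -0.13 for Pik3ap1, -0.34 for Relb, -0.70 for Runx3, -0.25 for S1pr3, -1.11 for Tk1, -0.95 for Tnfrsf4, -0.41 for Traf2 and -0.56 for Traf3. By construction this scale lowers every gene by about the same amount. Hey1, Hspa1a, Adm and Myc, with few counts or a wide spread, lost their call most often. With the replicate number as a block 9673 genes were called (4654 higher, 5019 lower), and the calls of Hey1 and Hspa1a were lost. The numbers do not pair the libraries by any label, and libraries with the same number deviated from their group means with r of -0.11 to 0.09 between groups (across 10376 genes, not independent).

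With 2 libraries a group, an exact permutation test of a single value cannot go below p = 0.3333, so calls rest on the spread shared across genes and groups. Counts of 0 to 3 set only bounds or wide intervals.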

Other observations

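The remaining groups give 2 side values that belong to no comparison above. Dntt was at 0.157 and 0.157 CPM in NF-kB-activated libraries, 0 and 0.218 CPM in control and 0 and 0.293 CPM in lymphoma libraries. Sox4 was at 7.44 and 2.72 CPM in NF-kB-activated, 7.75 and 9.19 CPM in control and 1.43 and 0.880 CPM in lymphoma libraries, against 893 and 837 CPM in the Notch-labelled libraries.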
